A study of Mus musculus with 8 samples.

Results

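The Wnt ligands Wnt4, Wnt5a, Wnt6 and Wnt10a and 6 regulators of the pathway, Rnf43, Znrf3, Axin2, Lgr4, Dkk3 and Sfrp1, were followed in an immortalized thymic epithelial line that carries a point mutation of Gtf2i. The members were taken as every array probe whose transcript accession maps to one of these 10 genes. That gave 16 of 56605 probes. Of the 10 genes, 7 were measured above background in at least 1 group in full, and 3 (Axin2, Dkk3 and Sfrp1) were above background on no array.

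The cells were TEC71, an immortalized line of mouse medullary thymic epithelium, and their RNA was read on 8 Agilent arrays with a single dye. Gtf2i encodes the transcription factor TFII-I, and the labels call the knock-in clones Gtf2i T1211A mutated. They do not say whether T1211A counts bases or amino acids. Knock-in clone 1 was measured on 3 arrays and knock-in clone 3 on 2 arrays. The control, measured on 3 arrays, had received Cas9 nickase with one guide RNA. Each knock-in group is 1 clone, so the mutation and the clone cannot be told apart within a group. The labels do not say whether replicate arrays came from separate cultures, so each p-value reflects only how far these arrays scatter, which may be technical.

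Wnt proteins are secreted, lipid-modified ligands that bind Frizzled receptors with the co-receptors Lrp5 and Lrp6, and in the canonical branch this keeps beta-catenin from being degraded so that it can act with TCF and LEF factors in the nucleus. Rnf43 and Znrf3 are membrane ubiquitin ligases that remove Frizzled from the cell surface, and R-spondins, bound to Lgr4 or its relatives, hold these ligases back. In the thymus, Wnt proteins are made by the epithelium and by developing T cells, and Wnt4 is known for acting on the epithelium's master regulator Foxn1.

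All 8 arrays shared 1 slide and 1 scan time. The 3 controls and clone 1 replicate 1 lay in row 1 of the slide, and the other arrays in row 2. Row and group thus overlap in part. Only clone 1 had arrays in both rows, so any row term rests on its replicate 1 against its replicates 2 and 3. With the row as a block, or in row 1 alone, the clone 1 difference is that of replicate 1 from the controls. These settings therefore cannot separate the row from that array. Between 55.3% and 59.3% of probes per array were well above background. The brightest spike-in control was at 3238 units on clone 1 replicate 1, against 18804 to 34228 on the 7 other arrays. All 6 epithelial marker genes were above background on every array, with a summed level of 313 to 360 in clone 1 and 335 to 373 in clone 3, against 361 to 475 in the control, in units of each array's 75th percentile signal. Among them, Epcam averaged 1.52 in clone 1 and 1.61 in clone 3, against 2.62 in the control (log2 level). Krt5 averaged 5.54 in clone 1 and 5.73 in clone 3, against 6.86 in the control. Krt14 and Cdh1 also had lower means in both clones, with narrower gaps. Krt8 went the other way, at 6.41 in clone 1 and 6.38 in clone 3, against 6.21 in the control. Krt18 was about level, at 6.45 in clone 1 and 6.41 in clone 3, against 6.45 in the control. Of 6 thymic epithelial markers, 3 were above background on all arrays, and Psmb11 and Ccl21a were above background on none. Their summed level was 32.3 to 36.7 in clone 1 and 29.5 to 34.8 in clone 3, against 26.3 to 31.1 in the control, and Cldn4 averaged 3.35 in clone 1 and 3.01 in clone 3, against 1.84 in the control (log2 level). Foxn1 and Cldn3, also above background on all arrays, were not higher in the clones. Foxn1 averaged -3.67 in clone 1 and -3.74 in clone 3, against -3.35 in the control. Cldn3 averaged 4.55 in clone 1 and 4.57 in clone 3, against 4.62 in the control. The summed fibroblast marker level was 0.440 to 0.607 in clone 1 and 0.444 to 0.516 in clone 3, against 0.944 to 1.19 in the control, in the same units. Of its 6 genes, 3 were above background on no array. The fall was mostly that of Pdgfra, at -1.63 in clone 1 and -2.15 in clone 3, against -0.32 in the control (log2 level). Col1a2, the other gene above background on all arrays, did not follow, at -2.86 in clone 1 and -2.59 in clone 3, against -2.73 in the control. Col1a1, above background on 2 control arrays alone, also averaged lower in the clones. The part of these marker shifts in the differences below was not tested. Gtf2i itself averaged 3.96 ± 0.07 in clone 1 and 3.82 ± 0.03 in clone 3, against 4.41 ± 0.05 in the control (log2 level, SD, n = 3, 2 and 3), a difference of -0.46 (limma adjusted p = 0.0075) and -0.59 (limma adjusted p = 0.0042). With the slide row as a block neither Gtf2i difference passed, at adjusted p = 0.0789 for clone 1 and 0.125 for clone 3.

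The windows upstream of the 3 members with the widest differences from the control are shown because these genes moved in opposite directions. Each is the 250 bases before an annotated start, from RefSeq on GRCm38.p6, and for Rnf43 it is the first of 2 annotated starts.
Wnt6 (chr1:74771642-74771891, plus strand): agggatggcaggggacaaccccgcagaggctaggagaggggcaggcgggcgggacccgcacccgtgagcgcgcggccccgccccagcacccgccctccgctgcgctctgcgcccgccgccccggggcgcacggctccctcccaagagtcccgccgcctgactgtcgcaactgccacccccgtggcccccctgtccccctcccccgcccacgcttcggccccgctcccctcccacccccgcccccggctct
Wnt4 (chr4:137277385-137277634, plus strand): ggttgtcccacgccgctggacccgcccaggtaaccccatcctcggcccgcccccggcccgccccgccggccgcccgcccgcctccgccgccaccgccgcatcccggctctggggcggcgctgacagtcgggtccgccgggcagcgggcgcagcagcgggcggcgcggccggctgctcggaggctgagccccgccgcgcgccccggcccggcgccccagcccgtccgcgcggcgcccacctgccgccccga
Rnf43 (chr11:87662837-87663086, plus strand): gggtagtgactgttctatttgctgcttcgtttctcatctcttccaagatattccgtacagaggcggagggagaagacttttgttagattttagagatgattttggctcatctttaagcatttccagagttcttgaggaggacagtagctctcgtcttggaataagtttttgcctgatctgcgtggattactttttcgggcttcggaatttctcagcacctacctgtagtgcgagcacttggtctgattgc
The Wnt6 and Wnt4 windows are 79.6% and 85.2% G and C, whereas the Rnf43 window is 44.4%, against a median of 52.4% over 32851 windows. RefSeq windows were found for 5 of the 10 members, 6 windows in all, the others being Lgr4, Axin2 and the second Rnf43 start. Neither CTTTGA, the core letters of a TCF and LEF site, nor the E-box CACGTG was found on either strand in any of the 6 windows. Of all windows of that length, 13.8% hold CTTTGA and 6.02% hold CACGTG.

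Levels below are log2 processed signal minus the 75th percentile of each array. A gene passed where limma's adjusted p, over all 25353 tested genes and unnamed transcripts, was under 0.05. In clone 1 against the control, 5 of the 7 tested members passed, 2 higher and 3 lower, beside 31.1% of everything tested (14.7% higher and 16.5% lower). In clone 3 the same 5 members passed in the same directions, beside 30.2% of everything tested (13.3% higher and 17% lower). Of everything tested, 23.5% passed in both clones with the same sign (11.3% higher and 12.2% lower). The 2 comparisons share the 3 control arrays. Wnt6 entered the test only through the knock-in arrays and Rnf43 only through the controls, so for these 2 members a difference was built into the filter and the count of 5 carries no weight of its own. In bulk RNA, fewer cells that make a transcript and less of it per cell cannot be told apart.

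**Figure D1:**
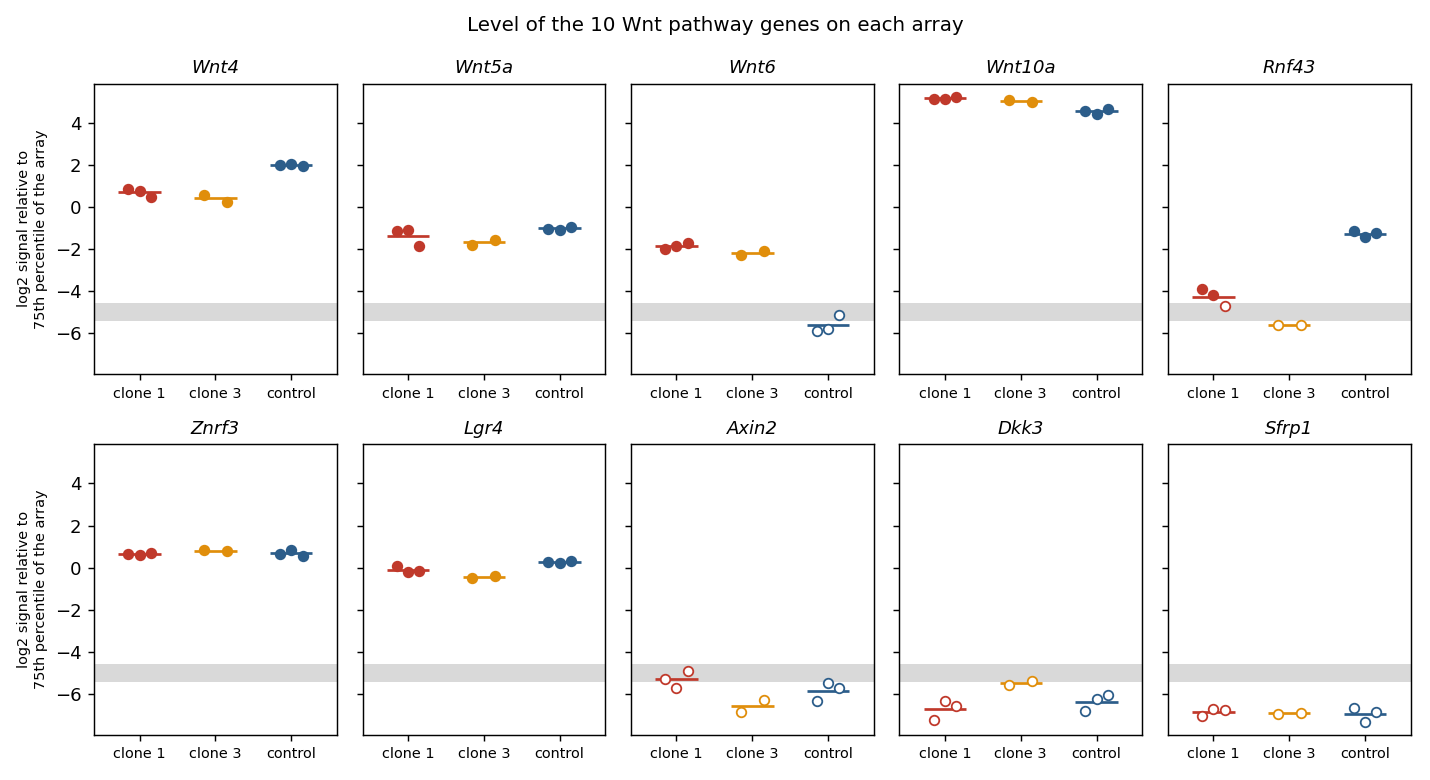
Level of the 10 members on each array, as log2 processed signal minus the array's 75th percentile, with clone 1 and clone 3 left of the control. Filled points are well above background, open points are not, bars are group means, and the grey band is the range over arrays of the lowest signal called well above background. Wnt6 is open on all 3 controls, Rnf43 on both clone 3 arrays, and Axin2, Dkk3 and Sfrp1 on all 8 arrays.

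Among the ligands, Wnt6 and Wnt10a were higher and Wnt4 was lower in both clones. Wnt6, a ligand best known from epithelia and kidney tubule formation, had processed signals of 79.6, 76.0 and 111 in clone 1 and 65.0 and 66.0 in clone 3, against 4.51, 6.81 and 8.21 in the control. Every knock-in array was well above background and no control array was, so the groups did not overlap. Wnt6 averaged -1.87 ± 0.14 in clone 1 and -2.20 ± 0.14 in clone 3, against -5.60 ± 0.42 in the control (log2 level, SD, n = 3, 2 and 3). Because the control values lie below background, the difference is a bound. Wnt6 was at least 8.67-fold higher in clone 1 and at least 6.86-fold higher in clone 3, where the control is set to no less than the lowest signal called well above background on each array. The limma adjusted p was 3.91e-06 for clone 1 and 1.72e-05 for clone 3. With normexp background correction, which pulls dim probes together, the log2 differences were 1.20 in clone 1 and 1.01 in clone 3 and still passed.

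Wnt10a, a ligand of skin, tooth and hair development, had log2 levels of 5.13, 5.15 and 5.23 in clone 1 and 5.10 and 4.99 in clone 3, against 4.56, 4.42 and 4.65 in the control. All 5 knock-in arrays lay above all 3 controls. The rise was 1.54-fold in clone 1 (log2 0.62, SE 0.11, limma adjusted p = 0.00265) and 1.41-fold in clone 3 (log2 0.50, SE 0.12, limma adjusted p = 0.0140). The clone 3 call was lost under 3 of 19 alternatives, without clone 3 replicate 1 (0.44, limma adjusted p = 0.0753), with the slide row as a block (0.44, limma adjusted p = 0.261) and with no filter on dim probes (limma adjusted p = 0.0614). Within row 1 the clone 1 difference was 0.58 (limma adjusted p = 0.0824).

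Wnt4, a ligand of kidney, gonad and thymus development, had log2 levels of 0.86, 0.77 and 0.46 in clone 1 and 0.57 and 0.23 in clone 3, against 2.00, 2.03 and 1.96 in the control. The control arrays lay within 0.1 of each other and above every knock-in array. Wnt4 fell 2.46-fold in clone 1 (log2 -1.30, SE 0.14, limma adjusted p = 2.31e-04) and 3.02-fold in clone 3 (log2 -1.59, SE 0.16, limma adjusted p = 1.67e-04). Wnt4 stayed past the threshold under every alternative that was run, with the slide row as a block included.

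Wnt5a, the ligand best known for beta-catenin-independent signalling, did not pass in either clone. Its brighter probe was at -1.14, -1.12 and -1.85 in clone 1 and -1.80 and -1.57 in clone 3, against -1.03, -1.08 and -0.97 in the control (log2 level). Every knock-in array was below every control. The difference was -0.34 in clone 1 (95% confidence interval -0.79 to 0.11, limma adjusted p = 0.232) and -0.66 in clone 3 (95% confidence interval -1.16 to -0.15, limma adjusted p = 0.0530). The clone 3 value crossed the threshold under 8 of 19 alternatives, among them quantile normalization (-0.61, limma adjusted p = 0.0452) and the fit without clone 1 replicate 3 (limma adjusted p = 0.00714). With the slide row as a block it was -0.31 (limma adjusted p = 0.662), and with the mean of both probes -0.29 (limma adjusted p = 0.243). In clone 1 the difference was -0.11 with the row block (limma adjusted p = 0.838) and -0.10 without clone 1 replicate 3 (limma adjusted p = 0.608). The second Wnt5a probe was above background on 0 of 8 arrays, with signals of 2.24 to 2.75.

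The ubiquitin ligase pair differed between its members, with Rnf43 far lower in both clones and no difference past the threshold at the brightest Znrf3 probe. Rnf43 had processed signals of 21.3, 15.2 and 13.7 in clone 1 and 6.61 and 5.67 in clone 3, against 120, 139 and 121 in the control. It was well above background on 2 of 3 clone 1 arrays, on neither clone 3 array and on all 3 controls. Rnf43 averaged -4.28 ± 0.42 in clone 1 and -5.62 ± 0.03 in clone 3, against -1.28 ± 0.14 in the control (log2 level, SD, n = 3, 2 and 3). It was 8.00-fold lower in clone 1 (log2 -3.00, SE 0.20, limma adjusted p = 1.36e-05) and at least 12.1-fold lower in clone 3 (limma adjusted p = 3.97e-06). The clone 1 value is not a firm size, because its mean includes replicate 3, which was below background. With normexp background correction the log2 differences were -1.28 in clone 1 and -1.45 in clone 3 and still passed.

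Znrf3 was read by 3 probes, all above background on 8 of 8 arrays. The brightest was at 0.65, 0.62 and 0.69 in clone 1 and 0.83 and 0.77 in clone 3, against 0.63, 0.83 and 0.55 in the control (log2 level), and the groups overlapped. Its difference was -0.02 in clone 1 (95% confidence interval -0.27 to 0.23, limma adjusted p = 0.927) and 0.13 in clone 3 (95% confidence interval -0.15 to 0.41, limma adjusted p = 0.468). The other probes disagreed with each other. One was higher by 0.41 in clone 3 (limma adjusted p = 0.0243), with 0.12 in clone 1, and the remaining one gave -0.34 in clone 1 and -0.36 in clone 3, neither past the threshold.

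Lgr4, the R-spondin receptor among the members, was lower in both clones by its brighter probe. It was at 0.10, -0.20 and -0.18 in clone 1 and -0.52 and -0.38 in clone 3, against 0.25, 0.21 and 0.33 in the control (log2 level). All knock-in arrays lay below all controls. The difference was -0.36 in clone 1 (SE 0.12, limma adjusted p = 0.0487) and -0.71 in clone 3 (SE 0.13, limma adjusted p = 0.00437). The second probe gave -0.26 in each clone, with limma adjusted p of 0.160 in clone 1 and 0.200 in clone 3. The clone 1 call was lost under 13 of 20 alternatives, and with the slide row as a block the difference was -0.17 in clone 1 (limma adjusted p = 0.508) and -0.42 in clone 3 (limma adjusted p = 0.235).

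**Figure D2:**
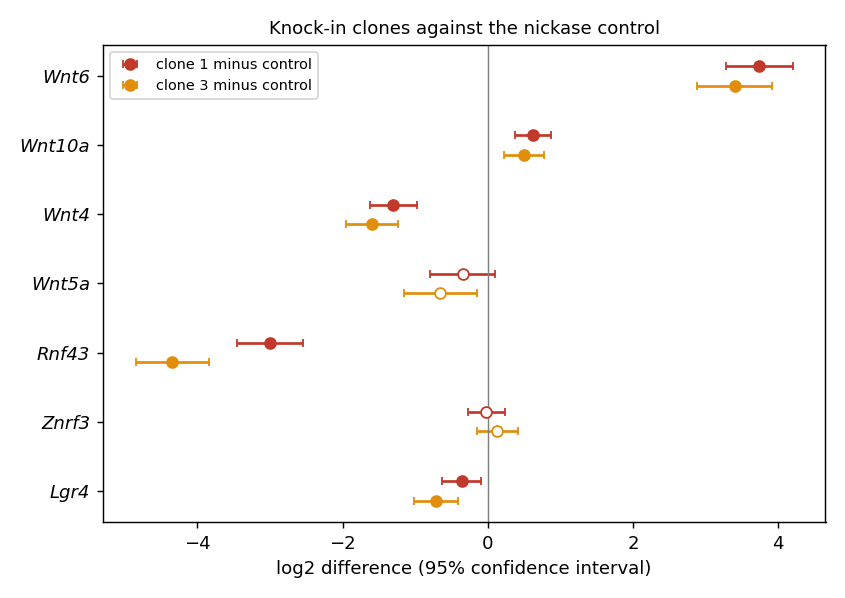
Difference of each clone from the control for the 7 tested members, as log2 level with its 95% confidence interval; filled points passed limma's adjusted p of 0.05. Wnt6 lies furthest above 0 and Rnf43 furthest below it in both clones, and the intervals of Znrf3 span 0. The Wnt6 and clone 3 Rnf43 points rest on groups below background, and the clone 1 Rnf43 mean includes replicate 3, which was below background.

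**Figure D3:**
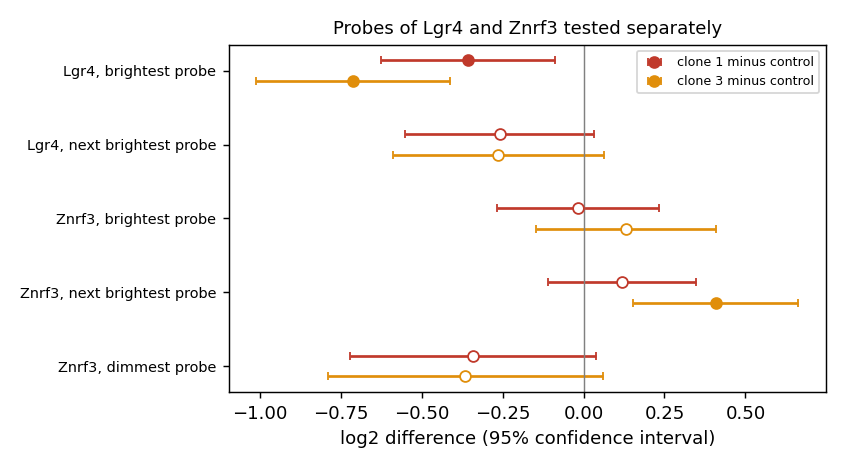
Difference of each clone from the control (log2, 95% confidence interval) for the 2 probes of Lgr4 and the 3 probes of Znrf3, each tested on its own; filled points passed. The brighter Lgr4 probe passed in both clones and the dimmer in neither, and 1 of 3 Znrf3 probes passed, in clone 3.

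Axin2, a beta-catenin-induced scaffold that feeds back on the pathway, and Dkk3 and Sfrp1, secreted modulators of Wnt signalling, were read by 5 probes in all. None was well above background on any array, with processed signals of 1.99 to 12.2. No fold is given for them, and a level below this limit was not detectable in any of the groups.

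Clone 3 was also set against clone 1. No member passed, beside 0.0749% of everything tested, and 2 had an unadjusted p under 0.05, Rnf43 and Lgr4. Rnf43 was below background on both clone 3 arrays and on clone 1 replicate 3, so its difference has no firm size (limma adjusted p = 0.103). With clone 3 set to no less than the lowest signal called well above background, Rnf43 was 1.51-fold lower than in clone 1. This is not a strict minimum, since the clone 1 mean includes replicate 3. The fitted log2 difference of -1.34, which is not itself a measured size, became -0.18 with normexp background correction (limma adjusted p = 0.945). It crossed the threshold under 2 of 19 alternatives, median scaling (-1.29, limma adjusted p = 0.0466) and the fit without clone 1 replicate 3 (-1.57, limma adjusted p = 0.0337). Lgr4 differed by -0.35 (95% confidence interval -0.65 to -0.05, limma adjusted p = 0.404). The intervals of the other 5 members all included 0, and the widest of them, for Wnt6, ran from -0.85 to 0.18.

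The rest of the pathway was read from 98 other genes by role, all on the array and 65 of them tested. Each was counted by its brightest probe. In clone 1, 12 were higher and 6 lower, and in clone 3, 10 were higher and 7 lower. These are 27.7% and 26.2% of the tested pathway genes, beside 31.1% and 30.2% of everything tested, so the pathway was called about as often as the array as a whole. The median log2 difference was 0.07 in clone 1 and 0.05 in clone 3, against -0.05 in clone 1 and -0.04 in clone 3 over everything tested. With the slide row as a block, 3 pathway genes passed in clone 3. In the main fit, 9 of the 65 were higher and 5 lower in both clones, beside 11.3% higher and 12.2% lower of everything tested. The same shares stand beside the both-clone counts by role below.

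Among the other ligands, 3 of 7 tested were higher in both clones. Wnt7a gave a log2 difference of 0.79 in clone 1 and 0.80 in clone 3. Wnt7b gave 0.99 in clone 1 and 1.38 in clone 3, and Wnt9a gave 1.01 in clone 1 and 0.59 in clone 3. The pathway genes given here other than Porcn, Fzd8 and Ccn4 were named after their values were seen. Of 3 genes for ligand maturation, Porcn, the acyltransferase that adds the lipid Wnt proteins need for secretion, was lower in both clones. Porcn had log2 levels of 2.20, 2.13 and 2.27 in clone 1 and 1.55 and 0.89 in clone 3, against 3.23, 3.25 and 3.33 in the control. The difference was -1.07 in clone 1 (limma adjusted p = 0.00145) and -2.05 in clone 3 (limma adjusted p = 9.65e-05), with no overlap between groups.

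Of 14 tested receptors, 2 were higher in both clones, Fzd4 (log2 0.66 in clone 1 and 0.49 in clone 3) and Fzd8, both Frizzled receptors. Fzd8 had processed signals of 23.3, 19.7 and 14.9 in clone 1 and 19.6 and 10.4 in clone 3, against 2.39, 4.42 and 5.21 in the control. It was above background on 3 of 3 clone 1 arrays and 1 of 2 clone 3 arrays and on no control. Fzd8 thus entered the test only through clone 1. A difference from the control was built into the filter, and its place in the count of receptors carries no weight of its own. Fzd8 was at least 1.88-fold higher in clone 1 (limma adjusted p = 0.00118). In clone 3 the same limit on the control gave 1.49-fold (limma adjusted p = 0.00516). That value is not a strict minimum, because 1 of the 2 clone 3 arrays was itself below background. With normexp background correction neither clone passed (limma adjusted p = 0.188 in clone 1 and 0.186 in clone 3). With the slide row as a block the clone 3 call was lost as well (adjusted p = 0.0630). Lgr6, the 1 tested gene of the R-spondins and Lgr receptors beside Lgr4, gave 0.01 in clone 1 and 0.17 in clone 3 and passed in neither. Of 3 other tested secreted or surface modulators, Kremen1, a Dkk receptor, was higher in both clones, by 0.39 in clone 1 and 0.43 in clone 3 at its brightest probe. A second Kremen1 probe disagreed, at -0.62 in clone 1 (limma adjusted p = 0.0207, lower) and 0.01 in clone 3 (limma adjusted p = 0.963).

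Of 13 genes of the cytoplasmic core, 1 was higher in both clones, the kinase Gsk3b (0.89 in clone 1 and 0.94 in clone 3 at its brightest probe). Of its other probes, one gave 0.99 in clone 1 and 1.03 in clone 3, and another gave 0.19 in clone 1 and -0.08 in clone 3, neither past the threshold. Axin1 did not pass at its brightest probe. A second Axin1 probe was higher, at 0.42 in clone 1 and 0.56 in clone 3, both past the threshold. Ctnnb1, beta-catenin, gave 0.10 in each clone and did not pass. Of 10 tested nuclear genes, 2 were higher and 2 lower in both clones. The higher pair was Bcl9l, a beta-catenin co-activator, at 1.01 in clone 1 and 0.83 in clone 3, and the co-repressor Tle4 at 0.39 in clone 1 and 0.60 in clone 3. A further Bcl9l probe disagreed, with -0.05 in clone 1 and -0.55 in clone 3, neither past the threshold. The lower pair was Tcf7l2, a TCF factor, at -0.75 in clone 1 and -0.66 in clone 3, and the beta-catenin inhibitor Ctnnbip1 at -0.64 in clone 1 and -0.55 in clone 3. For Tcf7l2 this rests on the brightest probe, since its 3 other probes, at -0.54, -0.34 and -0.35 in clone 1 and -0.21, -0.17 and -0.19 in clone 3, did not pass in either clone. Tle2 and Tle3 did not pass at their brightest probes, but a second probe of each was higher and past the threshold in both clones. For Tle2 it gave 1.34 in clone 1 and 1.45 in clone 3, and for Tle3 0.54 in clone 1 and 0.75 in clone 3. Among 6 tested planar polarity genes, Vangl1 was lower in both clones, at -0.72 in clone 1 and -0.80 in clone 3. Prickle1 was lower in clone 3 alone at its brightest probe (-0.86). A second Prickle1 probe disagreed and was higher, at 1.48 in clone 1 and 1.25 in clone 3.

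Of 9 other tested targets of the pathway, 1 was lower in both clones. Ccn4, a secreted matricellular protein first known as a Wnt1-induced gene, had log2 levels of -0.80, -0.84 and -0.86 in clone 1 and -0.98 and -1.02 in clone 3, against 3.51, 3.34 and 3.45 in the control. Every knock-in array lay more than 4 log2 units below every control. The difference was -4.27 in clone 1 and -4.43 in clone 3, and a second Ccn4 probe gave -3.37 in clone 1 and -4.47 in clone 3. Nkd2, another target, did not pass at its brightest probe. A second Nkd2 probe was higher, at 1.71 in clone 1 and 1.80 in clone 3, both past the threshold. Lef1, Tcf7, Nkd1, Sp5 and Lgr5, which are widely read as beta-catenin targets, were above background on no array. They were picked from several roles after their values were seen. Of the 13 genes listed as other targets, 9 were above background on all 8 arrays, Myc, Ccnd1 and Cd44 among them.

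**Figure D4:**
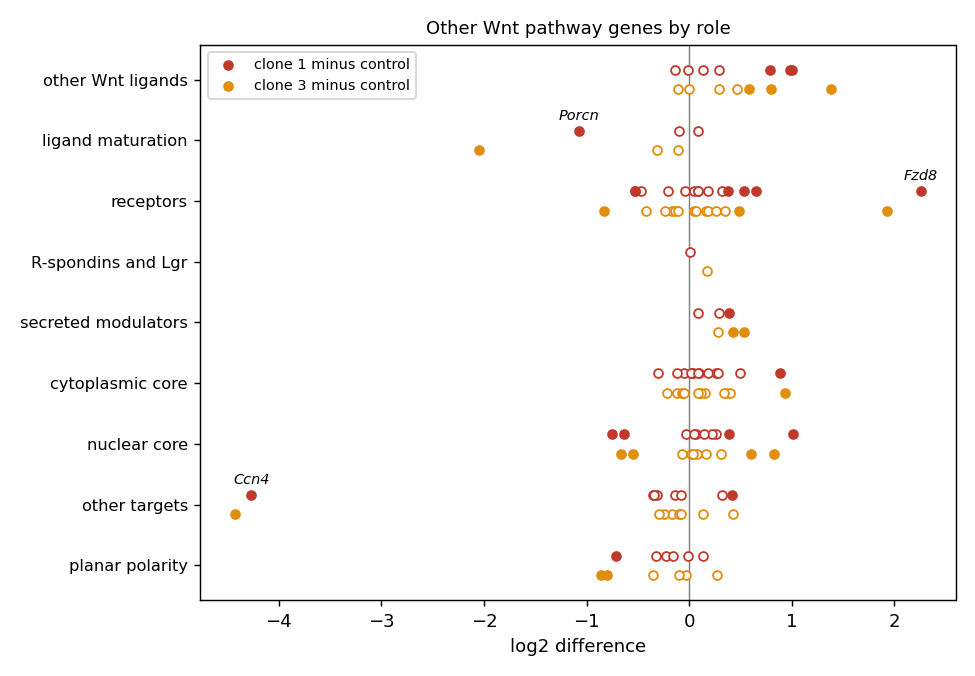
Log2 difference from the control of the 65 tested other pathway genes by role, with clone 1 above clone 3 in each role. Filled points passed limma's adjusted p of 0.05. Most points lie near 0, and Ccn4, Porcn and Fzd8 are labelled.

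The genes whose arrays moved most like the widest riser and faller were found by the root mean square difference of centred log2 levels over the 8 arrays, among 14711 genes. For Wnt6 these were BC016579 (0.195), H2-DMb1 (0.201) and Thsd4 (0.206). For Rnf43 they were Skap1 (0.460), Chchd10 (0.462) and Galnt18 (0.508), a looser match.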

How the data were processed

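Agilent one-colour arrays of 3 clone 1, 2 clone 3 and 3 control RNA samples were used. The deposited processed signals are linear, background-corrected intensities; per the submitters' processing notes, the extraction software was Agilent Feature Extraction, version 11.5.11. Left out were control spots and, on each array, 114 to 242 spots marked non-uniform or population outliers. Intensities were converted to log2, averaged over the spots of a probe and reduced by each array's 75th percentile. Accessions were named through RefSeq (GRCm38.p6), and 32994 of 56605 probes got a symbol. The brightest probe stood for a gene. Genes entered the test if all arrays of 1 group or more read them well above background. limma 3.58.1 in R 4.3.3 fitted the 3 groups together (lmFit, eBayes, two-sided, Benjamini-Hochberg over 25353 features, threshold 0.05), with 5 residual degrees of freedom. The fit was tested on simulated data. The number of arrays limits the precision. Members and lists were chosen with earlier results of these data known. The rule for named genes took all members, other pathway genes past the threshold and at least 2-fold the same way in both clones (up to 4 per role), the 3 most alike to the widest riser and faller, and Gtf2i; other pathway genes and markers were named after their values were seen. Alternatives were other scaling, background correction, filters, probe rules, the slide row, and leaving out each array. The 75th percentile over spots and row 2 alone were added after seeing the data.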

Additional observations from a re-analysis of the deposited data

How the results depend on the processing

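No paired analysis was possible because the labels give no replicate numbers. The replicate numbers used here count the arrays of each group in their listed order. The direction of the brightest Znrf3 probe in clone 1, near 0, turned with normexp correction (0.0333) and median scaling (0.0179), and ran from -0.0796 to 0.0644 when each array was left out in turn. Everything called in clone 1 numbered 7896, against 4349 with the slide row as a block and 3597 in row 1 alone. In clone 3 it numbered 7669, against 5103 without a filter and 2068 with the row block. Between clone 3 and clone 1 it numbered 19, against 46 with normexp correction, 7 without a filter, 62 with a trended and robust prior and 0 in row 2 alone, where limma's unadjusted p was under 0.05 for 1552. Of the members, 3 passed in clone 1 with the filter on all 8 arrays, which removes Wnt6 and Rnf43, 3 in row 1 alone, and 3 in clone 3 with the row block. With median scaling 1 passed between the clones. Pathway genes numbered 8 for clone 1 in row 1 alone and 3 for clone 3 with the row block. Leaving out each array gave 6223 to 7926 features, 4 to 5 members and 12 to 19 pathway genes in clone 1, 5150 to 7464, 4 to 6 and 13 to 17 in clone 3, and 8 to 61 features and 0 to 1 members between the clones. The cause of these shifts was not tested, except that fewer arrays or genes entered some fits. Row 1 holds no clone 3 array and row 2 no control. The row block and row 1 alone both hinge on clone 1 replicate 1, the only knock-in array in row 1. Dim signal limits Wnt6, Rnf43, Axin2, Dkk3 and Sfrp1.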

Other observations

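Wnt6 and Wnt10a are neighbours on chromosome 1 in RefSeq gene order, and both were higher in each clone. Of the 6 tested protein-coding genes nearest to Wnt6, 3 on each side, Wnt10a was the 1 that passed in both clones. Over everything tested, 23.5% passed in both clones with the same sign. Of the 6 nearest to Rnf43, 0 passed in both clones by limma's adjusted p. Of the 6 nearest to Wnt4, 1 passed in both, the ephrin receptor Epha8, at 0.92 in clone 1 (limma adjusted p = 0.00110) and 0.82 in clone 3 (limma adjusted p = 0.00403), opposite in sign to Wnt4. These neighbours were looked at after the member values were seen.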
